A study of Psychotria gabriellae and Psychotria semperflorens with 6 samples.

Results

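Leaves of 2 wild Psychotria plants from Riviere Blanche were compared with leaves of 4 from Monts Koghi, both sites in New Caledonia. All 6 libraries of the series take part, grouped by the site recorded for each plant. At Riviere Blanche, in the commune of Yate, P. gabriellae plant 2 and P. semperflorens plant 2 were taken on March 10. At Monts Koghi, in Dumbea, P. gabriellae plant 1 and P. semperflorens plant 3 were taken on October 30 of the preceding year, and P. gabriellae plant 3 and P. semperflorens plant 1 on November 4. All 6 grew in rain forest on serpentine soil and received no treatment. P. gabriellae is labelled a nickel hyperaccumulator and P. semperflorens a non-accumulator, and each species gives 1 plant at Riviere Blanche and 2 at Monts Koghi. Site, season and collection day cannot be told apart, since every Riviere Blanche plant was taken on 1 day in March.

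Serpentine soils are rich in nickel and magnesium and poor in calcium and other nutrients. A hyperaccumulator moves nickel from root to shoot and stores it in leaf cells. Leaf transcript levels in wild plants also follow light, water supply, leaf age, time of day and other organisms on the leaf. In the southern hemisphere October and November fall in spring and March at the end of summer.

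The unit of measurement is the contig, a sequence assembled from the reads of 1 P. gabriellae plant, on which the reads of both species were counted. The labels do not say which plant was assembled, and P. gabriellae plant 1 of Monts Koghi had reads on all contigs but 2. Whether the assembled plant bears on contigs lower at Riviere Blanche was not tested. The files do not pair contigs with genes, so contigs are given by identifier with no function, position or sequence, and markers of leaf cells could not be checked. Levels are CPM, counts scaled to a common library total, after TMM scaling, a method that sets the typical contig level between libraries. The Riviere Blanche libraries were the deepest, with 62064930 and 58201917 reads, against 29905486 to 55997877 at Monts Koghi. Of 60899 contigs, 56600 passed the filter on low counts and were tested.

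The distance between the sites was close to the distance between 2 plants of the same site. Between pairs of plants of 1 species, distance was taken as the median over contigs of the absolute difference of log2(CPM + 0.5). In P. gabriellae, the Riviere Blanche plant lay 0.481 from plant 1 and 0.417 from plant 3 of Monts Koghi, and these Monts Koghi plants lay 0.404 apart. In P. semperflorens, the Riviere Blanche plant lay 0.366 from plant 1 and 0.402 from plant 3 of Monts Koghi, which lay 0.364 apart. Every pair across sites was thus farther apart than the pair within Monts Koghi of the same species, the smallest excess being that over P. semperflorens plant 1. Over the 13834 contigs averaging 10 CPM or more, this last order turned, with 0.361 between the Riviere Blanche plant and plant 1 and 0.387 within Monts Koghi. With 1 pair within a site per species, these excesses have no measured error. Pairs of different species from the same site and day lay 0.422 to 0.50 apart, and the pair from Riviere Blanche was the closest of these 3.

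The order changed when large differences alone were counted. In P. gabriellae, 6.49% of contigs were at least 4-fold apart between the Riviere Blanche plant and plant 1 of Monts Koghi, but 3.74% between the Riviere Blanche plant and plant 3, slightly fewer than the 3.83% between plants 1 and 3. Across contigs, which are not independent, Pearson's r was likewise 0.925 between the Riviere Blanche plant and plant 3, above the 0.918 within Monts Koghi. In P. semperflorens 2.63% and 3.35% of contigs were at least 4-fold apart across sites, from plants 1 and 3 of Monts Koghi in that order, and 2.43% within Monts Koghi. Set against the mean of both Monts Koghi plants, the Riviere Blanche plant differed by at least 4-fold in 4.05% of contigs in P. gabriellae (746 higher, 1545 lower) and in 2.08% in P. semperflorens (569 higher, 606 lower).

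**Figure D1:**
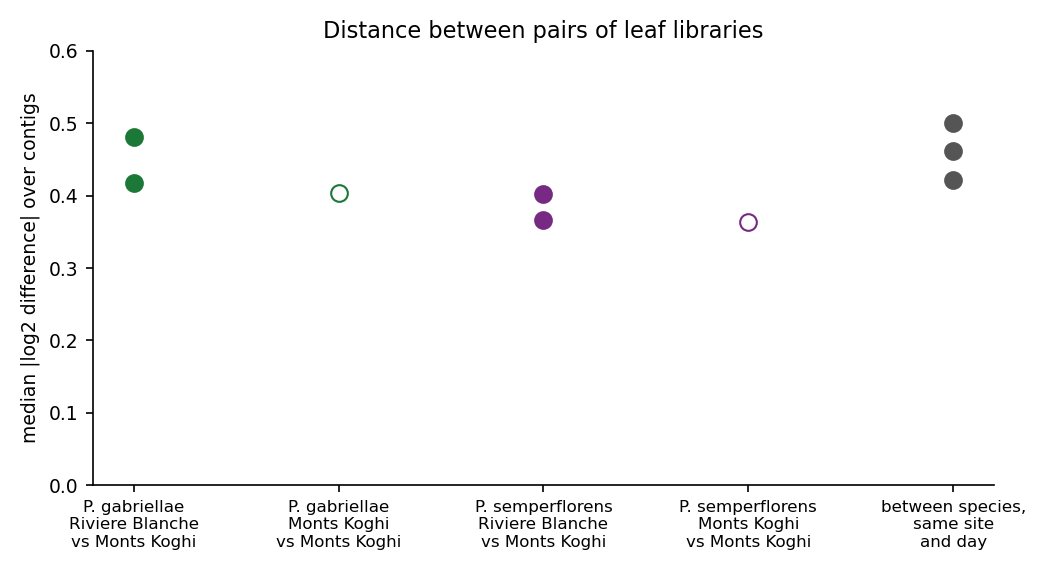
Each point is 1 pair of plants, and the vertical axis is the median over 56600 contigs of the absolute difference of log2(CPM + 0.5). Filled green and purple points are pairs across sites, open points the pair within Monts Koghi, and grey points pairs of different species from the same site and day; the across-site points, 0.366 to 0.481, reach little above the open points at 0.404 and 0.364.

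The sum of squares of log2(CPM + 0.5) around each contig's mean was split over all contigs. Of it, 23.6% fell to site, 29.9% to species and 46.5% to the rest. The rest combines differences between plants of the same species and site with differences of the site effect between the species. Site and species hold 1 degree of freedom each and the rest holds 3. Where neither played a part, each degree of freedom would take an equal part on average. The site share is therefore not the part that site explains. The median share per contig was 15.3% for site and 20% for species. Among the 1716 contigs that averaged 100 CPM or more, the site share was 30.8% and the species share 23.3%. Among the 20587 contigs of 1 to 10 CPM they were 22.2% and 31.7%. Abundant contigs were the only one of 4 abundance classes in which the site share exceeded the species share.

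Agreement between the species was asked by taking, in each, the Riviere Blanche plant minus the mean of the 2 Monts Koghi plants on the log2(CPM + 0.5) scale. These 2 differences share no library. They had the same sign in 57.2% of contigs, with a Pearson r of 0.20 and a Spearman rho of 0.20 over 56600 contigs. The difference between the Monts Koghi days, November 4 minus October 30, had the same sign in both species in 47.5% of contigs, with an r of 0.04 and a rho of -0.04. Over all contigs the pattern of the site difference was therefore weakly shared, and that of the day difference hardly. The site difference sets 1 plant against a mean of 2, and the day difference 1 plant against 1. Noise thus lowers their r unequally. Among contigs at least 4-fold apart in both species, 257 had the same sign by site and 261 by day. Depth and the common P. gabriellae reference are shared by all points of these correlations.

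Agreement by Pearson r grew with abundance for both differences, but by rank and by sign only for the site difference. The same-sign share of the site difference was 56.6% under 1 CPM, 55.7% from 1 to 10 CPM, 59.8% from 10 to 100 CPM and 65.1% at 100 CPM or more, while r was 0.11, 0.16, 0.26 and 0.39. The same-sign share of the day difference stayed between 46.5% and 48.3% in these classes, while its r was 0.01, 0.04, 0.05 and 0.19. Spearman's rho of the site difference was 0.12, 0.16, 0.23 and 0.25 in the same classes. That of the day difference was -0.01, -0.03, -0.07 and -0.1, so its growth in r was not seen by rank. A shift common to both species raises the same-sign share without agreement from contig to contig. At 100 CPM or more, 68.8% of contigs were higher at Riviere Blanche in P. gabriellae and 68.4% in P. semperflorens. Under 1 CPM these shares were 36.7% and 39.3%. The growth by sign can therefore not be told apart from such a shift. Same-sign shares of both differences were larger among larger differences. At least 2-fold differences occurred in both species in 2565 contigs, of which 1767, or 68.9%, had the same sign. At least 4-fold differences occurred in both in 339 contigs, and 257 of these, or 75.8%, had the same sign (46 higher and 211 lower at Riviere Blanche), and at 8-fold the share was 78.1%. These 339 were 14.8% of the contigs at least 4-fold apart in P. gabriellae and 28.9% of those in P. semperflorens. For the day difference the shares were 53.5% at 2-fold, 63.2% at 4-fold (261 against 152) and 72.1% at 8-fold.

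**Figure D2:**
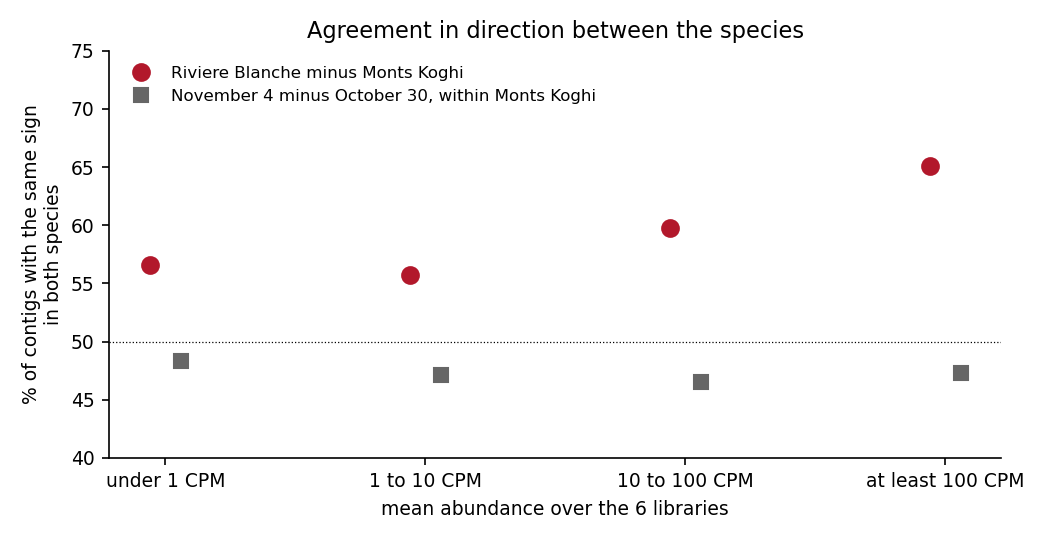
The vertical axis is the percentage of contigs whose difference has the same sign in both species, and the horizontal axis the class of mean CPM over the 6 libraries. Red circles are Riviere Blanche minus Monts Koghi and grey squares November 4 minus October 30 within Monts Koghi. The circles reach 65.1% in the most abundant class, and all 4 squares lie below the dotted line at 50%. That line is not the share without agreement where most contigs shift the same way in both species, as in the most abundant class.

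The agreement depended on the Monts Koghi plants chosen. With 1 Monts Koghi plant per species, the combinations with P. semperflorens plant 3 gave an r of 0.25 (with P. gabriellae plant 1) and 0.21 (with plant 3), and same-sign shares of 56.7% and 58.1%. The combinations with P. semperflorens plant 1 gave 0.11 and 0.06, with 53.4% and 51.6%. Thus r of the site difference on the plants of November 4 alone, 0.06, was close to the r of the day difference, 0.04. At 100 CPM or more the same 4 combinations gave r of 0.44, 0.32, 0.27 and 0.17, in the same order. Leaving P. semperflorens plant 3 out, and keeping both P. gabriellae plants of Monts Koghi, gave an r of 0.09 and a same-sign share of 53.2%.

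**Figure D3:**
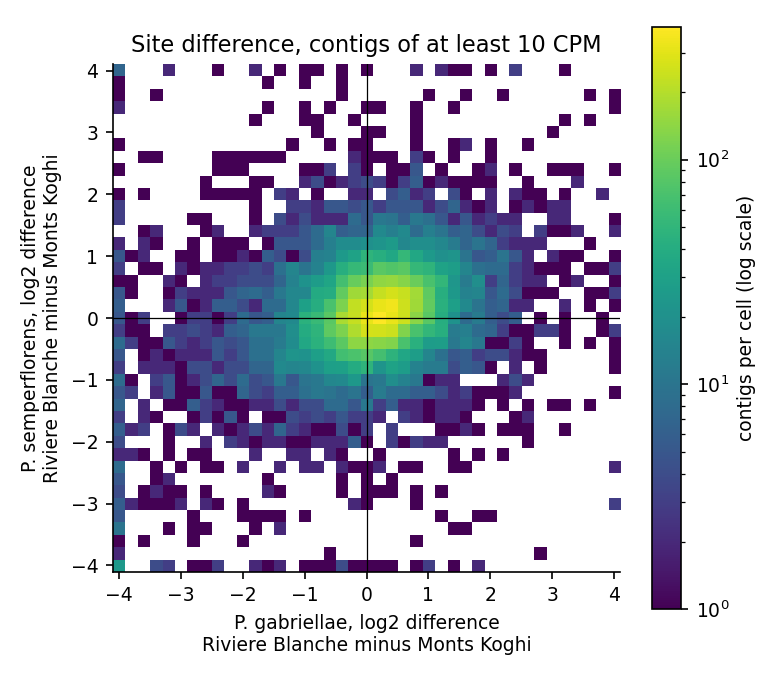
Each cell counts contigs averaging 10 CPM or more by their log2 difference, Riviere Blanche minus Monts Koghi, in P. gabriellae (horizontal) and P. semperflorens (vertical), with colour on a log scale and differences beyond 4 drawn in the edge cells. The cloud of 13834 contigs is centred slightly above 0 on both axes (medians 0.17 and 0.10) and is only faintly tilted, with an r of 0.28; contigs strongly lower in both species fill the lower left corner.

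Contigs that separate the sites were counted as those in which both Riviere Blanche plants lay beyond all 4 Monts Koghi plants. Of those tested, 4393 were higher at Riviere Blanche, or 7.76%, and 5242 were lower, or 9.26%. With 2 plants against 4, some contigs fall in each direction even where site plays no part. That share was not estimated here, so these counts, and those within each species below, are not a test. The higher ones had a median fitted log2 fold change of 0.85 and a median level of 6.91 CPM, and the lower ones -1.50 and 0.85 CPM, against -0.06 and 1.77 CPM over all contigs tested. Read within each species, the Riviere Blanche plant was above both own-species Monts Koghi plants in both species in 8043 contigs (14.2%) and below them in both in 8920 (15.8%). Without TMM scaling, on library totals alone, the median log2 fold change over all contigs was -0.213 instead of -0.062. The separated contigs then split into 2657 higher and 6635 lower, so the balance of the directions over all contigs rests on the scaling. Without P. semperflorens plant 1 the separated contigs numbered 14879 (6902 higher), without the Riviere Blanche plant of P. gabriellae 24056 (11658 higher) and without that of P. semperflorens 26015 (12373 higher), since fewer plants have to be exceeded.

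The direction of the separated contigs changed with abundance. Under 1 CPM, 893 contigs were higher and 2801 lower, or 4.03% and 12.6% of 22179. From 10 to 100 CPM, 1579 were higher and 720 lower, or 13.0% and 5.94% of 12118. At 100 CPM or more, 346 were higher and 66 lower, or 20.2% and 3.85% of 1716. On library totals alone the most abundant class had 242 higher and 106 lower, still mostly higher. Thinning every library to the depth of the smallest left it at 335 and 73. Most of these contigs were narrowly apart: when the nearest plants of the 2 sites had to differ by more than 2-fold, 6 were higher and 14 lower, and by more than 4-fold 1 and 3. Without P. semperflorens plant 1, 672 of 755 were higher, and without the Riviere Blanche plant of P. gabriellae or of P. semperflorens 714 of 843 or 537 of 810.

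**Figure D4:**
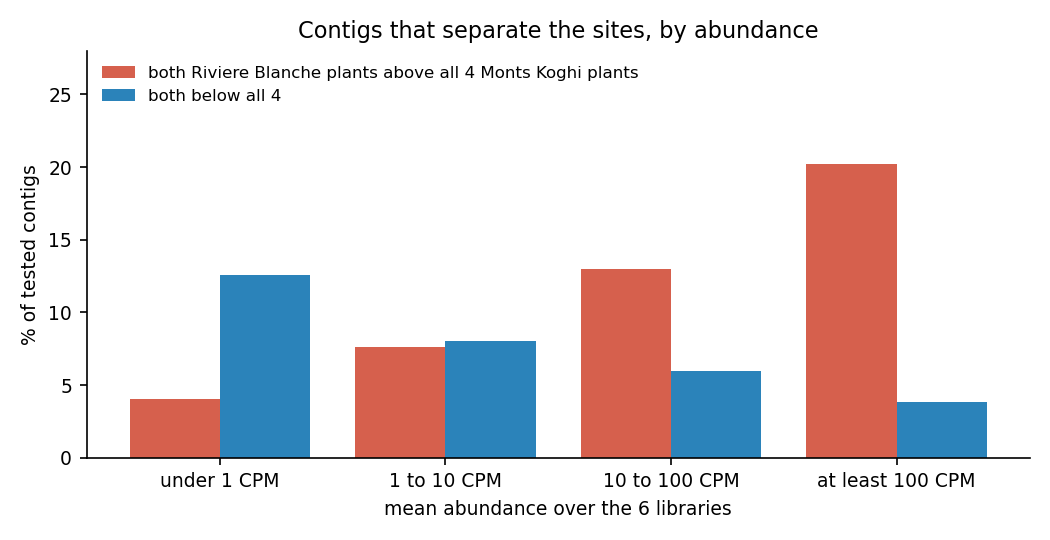
Bars give the percentage of tested contigs in each class of mean CPM in which both Riviere Blanche plants lay above all 4 Monts Koghi plants (red) or below all 4 (blue). The red bars increase to 20.2% and the blue bars decrease to 3.85% in the most abundant class.

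In the most abundant class 68.8% of contigs were higher at Riviere Blanche in P. gabriellae and 68.4% in P. semperflorens, each against the mean of its Monts Koghi plants. Against single plants the P. gabriellae shares were 64.7% and 71.4%, for plants 1 and 3. The P. semperflorens shares were 53.7% against plant 1 and 76.0% against plant 3. Within Monts Koghi, November 4 was higher than October 30 in 75.7% of these contigs in P. semperflorens and in 48.8% in P. gabriellae. The day shift was thus seen in P. semperflorens alone. The site shift was seen against each Monts Koghi plant in P. gabriellae, but in P. semperflorens mainly against plant 3, of October 30. In P. semperflorens it can therefore not be told apart from a trait of that plant. Against the means, 51.2% of these contigs were higher at Riviere Blanche in both species. Much of that share already follows from the shares of 68.8% and 68.4%, so it is no measure of agreement.

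The separated contigs took a sizeable part of the leaf reads. The 346 abundant higher contigs held 14.5% and 13.6% of the reads in the Riviere Blanche plants of P. gabriellae and P. semperflorens, against 6.41% and 9.43% in P. gabriellae plants 1 and 3 and 9.21% and 8.67% in P. semperflorens plants 1 and 3 of Monts Koghi. The 66 abundant lower contigs held 0.604% and 0.881% at Riviere Blanche, against 7.44%, 2.48%, 2.25% and 3.30% in the same Monts Koghi plants. These shares follow from how the contigs were picked, and they show the amount of RNA involved. The gain was spread over many contigs: 10 of the 4393 higher ones held 22.3% of their summed CPM difference and 100 held 48.0%. The loss was more concentrated, with 47.0% and 68.3% of it in 10 and in 100 of the 5242 lower ones. The higher contig with the largest difference in CPM was at 18700 and 23800 CPM at Riviere Blanche and at 9070 to 15300 CPM at Monts Koghi. The lower one was at 30.5 and 1810 CPM at Riviere Blanche. At Monts Koghi it was at 22800 CPM in P. gabriellae plant 1 and at 2140 to 5100 CPM in the other plants. The size of this loss thus rested largely on P. gabriellae plant 1, which also had the largest read share in the abundant lower contigs, 7.44%.

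The test of the site, with species as a second term, called 0 contigs at an adjusted p under 0.05 (edgeR's quasi-likelihood test, 0% of 56600). At an unadjusted p under 0.05 it passed 5203, or 9.19%, of which 2121 were higher and 3082 lower at Riviere Blanche. Limma-voom also called 0, with 5054 at an unadjusted p under 0.05, of which 2636 were higher and 2418 lower. DESeq2 called 1321, or 2.33%, with 455 higher and 866 lower. Of these, 1080, or 81.8%, had groups that did not overlap, against 9635 of all 56600 contigs. Overlap and call rest on the same values, so one does not bear out the other. The edgeR likelihood ratio test called 868. The number of contigs called between the sites thus ranged from 0 to 1321 with the test. Of the DESeq2 calls, 1279 had an unadjusted quasi-likelihood p under 0.05. Of the same calls 352 averaged 10 CPM or more, as did 13834 of all 56600 contigs. Under 1 CPM 44 calls were higher and 243 lower, and from 1 to 10 CPM 241 and 441. From 10 to 100 CPM they were 143 and 147, and at 100 CPM or more 27 and 35. The excess of higher contigs among the abundant separated ones was thus not seen among the DESeq2 calls.

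A single contig stood apart in that test. Pgab_v2_contig_404 was at 1.63 CPM in P. gabriellae and 1.44 CPM in P. semperflorens at Riviere Blanche, against 1950 and 909 CPM in P. gabriellae plants 1 and 3 and 1040 and 1210 CPM in P. semperflorens plants 1 and 3 at Monts Koghi. All 4 Monts Koghi plants were alike within a factor of 2.15, and the lowest of them was 557 times above the higher Riviere Blanche plant. The contig averaged 1.54 ± 0.133 CPM (SD, n = 2) at Riviere Blanche and 1280 ± 466 CPM (SD, n = 4) at Monts Koghi. Behind the low values stood 99 and 75 reads, so it was detected in both Riviere Blanche plants. The fitted log2 fold change was -9.69 ± 0.636 (SE), and -9.29 and -9.17 in P. gabriellae and P. semperflorens taken alone on the scale with 0.5 added. It had the smallest p of all contigs, yet its adjusted p was 0.216 by edgeR, 0.0678 by limma-voom and 2.96e-90 by DESeq2. With 1 plant left out the fold change stayed between -9.87 and -9.40 (edgeR adjusted p 0.178 to 0.767). An exact permutation of the site label within each species gave a two-sided p of 0.111, the smallest that 9 arrangements allow. This contig lies outside the naming rule used for the others and was picked once the values were known.

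The rule took, among separated contigs averaging 10 CPM or more, the 2 highest and the 2 lowest fitted fold changes. None of them passed the edgeR test. Pgab_v2_contig_24745 was at 14.7 CPM in P. gabriellae and 123 CPM in P. semperflorens at Riviere Blanche, against 1.26 and 4.62 CPM in P. gabriellae and 0.284 and 0.468 CPM in P. semperflorens at Monts Koghi. The fitted log2 fold change was 6.36 ± 1.66 (SE; edgeR adjusted p = 0.512, DESeq2 adjusted p = 1.14e-05). The Riviere Blanche plant of P. semperflorens carried most of this, and without it the log2 fold change was 2.35. Pgab_v2_contig_17171 was at 107 CPM in P. gabriellae and 198 CPM in P. semperflorens at Riviere Blanche, against 17.0 and 21.7 CPM in P. gabriellae and 0.0474 and 2.53 CPM in P. semperflorens at Monts Koghi. The fitted value was 5.55 ± 1.70 (SE; edgeR adjusted p = 0.514, DESeq2 adjusted p = 0.0027), and 2.50 without the same plant. In both contigs the Riviere Blanche plant lay above the Monts Koghi plants of its own species, and edgeR did not call a difference between the species (adjusted p of the interaction 0.483 and 0.782, against 0.000373 and 0.304 by DESeq2).

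On the other side, Pgab_v2_contig_56405 was at 0.0824 CPM in P. gabriellae and 0.0769 CPM in P. semperflorens at Riviere Blanche, against 0.675 and 82.4 CPM in P. gabriellae and 28.7 and 257 CPM in P. semperflorens at Monts Koghi. Only 5 and 4 reads lay behind the Riviere Blanche values. The fitted value was -9.85 ± 2.66 (SE; edgeR adjusted p = 0.512, DESeq2 adjusted p = 3.96e-08). The Monts Koghi plants spanned a factor of 380, and P. gabriellae plant 1 lay far nearer to Riviere Blanche than the other 3 did. Pgab_v2_contig_1361 held 0 reads in P. gabriellae and 1 in P. semperflorens at Riviere Blanche, against 12558 and 1 in P. gabriellae plants 1 and 3 and 2 and 15 in P. semperflorens plants 1 and 3 at Monts Koghi. The ratio of pooled reads over library totals, Monts Koghi over Riviere Blanche, was 8150, and its exact 95% interval, for counting error alone, ran between 1460 and 322000. Practically all of its reads came from P. gabriellae plant 1, so its place in the list rests on that plant (edgeR adjusted p = 0.57, DESeq2 adjusted p = 0.549). It did not pass the filter without P. gabriellae plant 1, nor without P. semperflorens plant 3, nor in libraries thinned to the smallest depth.

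**Figure D5:**
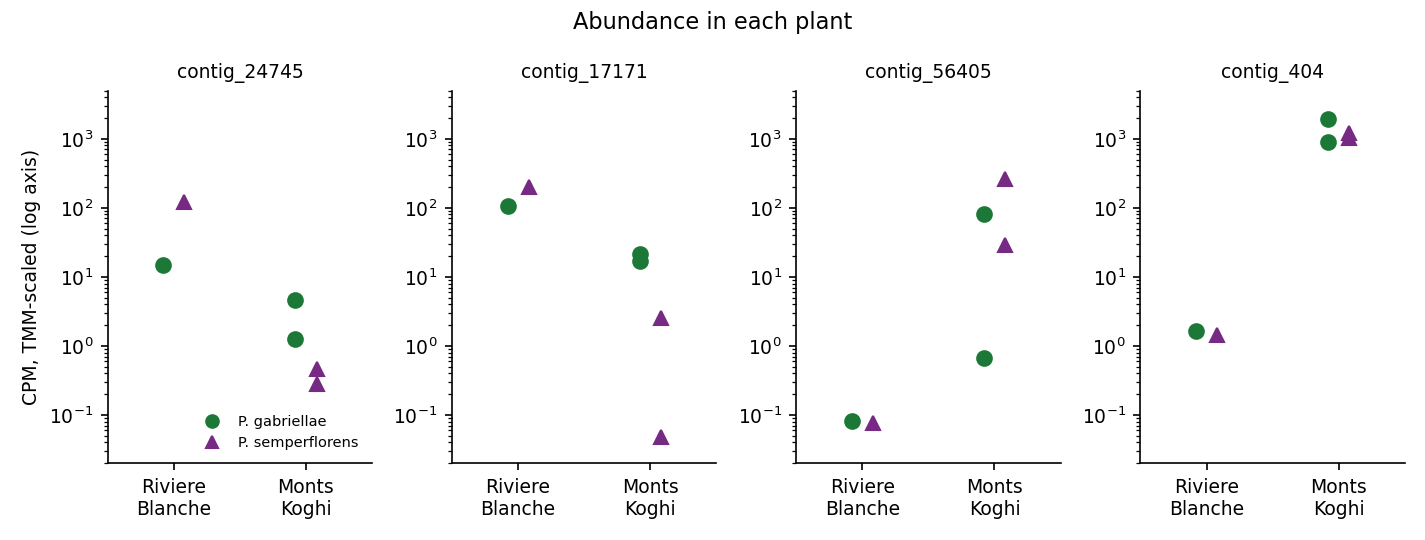
TMM-scaled CPM of 4 contigs in each plant on a log axis, with the 2 Riviere Blanche plants on the left and the 4 Monts Koghi plants on the right of each panel (green circles P. gabriellae, purple triangles P. semperflorens). Within a site the plants lie close together for Pgab_v2_contig_404, at 1.44 to 1.63 CPM and 909 to 1950 CPM, whereas Pgab_v2_contig_17171 and Pgab_v2_contig_56405 spread over more than 2 decades at Monts Koghi.

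Wide gaps between the sites were rare and mostly downward. Taking 3 reads of a library as the least level it can show, 23 contigs were at least 10-fold apart in every pair of plants from the 2 sites, 21 lower and 2 higher at Riviere Blanche. The 21 had mean levels of 0.878 to 852 CPM with a median of 5.35, and 6 of them were above 10 CPM. Pgab_v2_contig_404 had the widest gap. The next was 123, in a contig of 6.79 CPM with 0 reads in both Riviere Blanche plants, against 389 and 417 reads in P. gabriellae plants 1 and 3 and 301 and 847 reads in P. semperflorens plants 1 and 3 at Monts Koghi. The third was 38. The count of 23 was chosen after the data were seen. With 1 Monts Koghi plant left out it was 38 to 85. Without the Riviere Blanche plant of P. gabriellae or of P. semperflorens it was 185 or 364. An upward gap needs few reads in every Monts Koghi plant, and P. gabriellae plant 1 lacked reads on only 2 contigs. Without that plant 10 contigs were higher and 29 lower. Leaving out another Monts Koghi plant gave 3 to 7 higher and 35 to 80 lower. The part of plant 1 in the downward split was not tested. A gap over fewer plants is easier to reach, so these counts are not a test.

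Contigs with reads at 1 site only were few. No contig held at least 10 reads in both Riviere Blanche plants and 0 in all 4 Monts Koghi plants, and 8 showed the reverse. The first count could hardly be above 0, since P. gabriellae plant 1 of Monts Koghi lacked reads on only 2 contigs, whereas the other libraries lacked them on 2062 to 3425. Without that plant 7 contigs were detected at Riviere Blanche only and 9 at Monts Koghi only. Leaving out any 1 of the other 5 libraries gave 0 and 18 to 251.

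Whether the site difference differed between the species was tested as the interaction of species and site, which leaves 2 residual degrees of freedom. EdgeR's quasi-likelihood test called 0 contigs (0%) at an adjusted p under 0.05, with 3934, or 6.95%, at an unadjusted p under 0.05. DESeq2 called 840, or 1.48%. In 5565 contigs (9.83%) the Riviere Blanche plant was above both own-species Monts Koghi plants in P. gabriellae and below both in P. semperflorens, and in 5393 (9.53%) the reverse held. Of the 13834 contigs at 10 CPM or more, 2380 went opposite ways in this sense (1339 and 1041). More, 4649, went the same way (3222 above and 1427 below in both). Contigs of either kind also arise where site plays no part, so these counts are not a test.

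The rule named 1 contig at each end of the interaction, and both were contigs with no reads in a Riviere Blanche library. Pgab_v2_contig_14625 was at 40.7 CPM at Riviere Blanche in P. gabriellae, against 14.8 and 28.3 CPM at Monts Koghi. In P. semperflorens it held 0 reads at Riviere Blanche, against 19.3 and 27.0 CPM at Monts Koghi, and was thus at least 401-fold below the mean of these 2 plants when 3 reads of that library stand for 0. The edgeR adjusted p of its interaction was 0.305, and that of DESeq2 1.42e-06. Pgab_v2_contig_4467 held 0 reads at Riviere Blanche in P. gabriellae, against 34.1 and 99.1 CPM at Monts Koghi, and was at least 1350-fold below their mean on the same floor. In P. semperflorens it held 9 reads at Riviere Blanche and 0 in both plants of Monts Koghi (edgeR adjusted p of the interaction 0.348, DESeq2 0.00302). In both contigs 1 Riviere Blanche plant lacked reads that both Monts Koghi plants of its species had, and with 1 plant per species and site this cannot be told apart from a difference between individual plants.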

How the data were processed

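Leaf polyA RNA of 6 plants was sequenced from strand-specific paired-end libraries, per the labels' protocols. The authors deposited raw read counts per contig of a P. gabriellae assembly; the aligner, the counter and its use of strand were not given in the sources used here. Reads of P. semperflorens were counted on the other species' sequences, and alleles or paralogs can split reads between contigs.

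The analysis used R 4.3.3 and edgeR 4.0.16 (filterByExpr by site, TMM, quasi-likelihood test with species and site, Benjamini-Hochberg adjustment over 56600 contigs, threshold 0.05). The filter retained 99.86% or more of every library's reads. DESeq2 1.42.0 and limma 3.58.1 (voom) were alternatives, and the tests were tested on simulated data. There the quasi-likelihood test missed most of the changes put in. DESeq2 and the likelihood ratio test found more of them but also called many unchanged contigs. The simulated spread was fitted with species alone, so it took in the real site differences, and only contigs with many reads were changed. How often each test misses or miscalls in the real data is therefore not known. The 0 calls do not show that no contig differed. DESeq2 left 5487 adjusted p-values undefined for site and 10974 for the interaction. Standard errors are the fold change over the square root of F. No 2 libraries were alike within sampling noise (lowest chi-square, divided by its degrees of freedom, 113), so each counts as 1 plant. The comparison, the naming rule and the alternatives were chosen with earlier results of these data known. The rule named, at a mean of at least 10 CPM, 2 separated contigs at each end of the fold change and 1 opposed contig at each end of the interaction. Intervals and floors cover counting error only; 10 reads equal 0.161 to 0.334 CPM.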

Additional observations from a re-analysis of the deposited data

Results flagged for a closer look

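Among the contigs named for site or interaction and the library totals, 1 value stood far from the rest of its group. Pgab_v2_contig_1361 was at 229 CPM in P. gabriellae plant 1, while the other 3 Monts Koghi plants lay between 0.0283 and 0.260 CPM. The gap between that plant and the nearest other one was 0.999 of the whole range of the 4 plants, above Dixon's critical value of 0.829. Of 8 groups examined, most were contigs picked for extreme fold changes, this one through that same value, so the usual chance rate of about 1 in 20 groups does not apply. P. gabriellae plant 1 is also the library with 2 contigs at 0 reads, and its part in this value was not tested.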

How the results depend on the processing

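Contigs called for site numbered 0 under 3 other scalings, 4 other filters, limma-voom, no species term, an adjusted p under 0.1 and thinned libraries, and 0 to 0 with 1 plant left out. DESeq2 called 1321 and the likelihood ratio test 868; the cause was not tested. For the interaction, DESeq2 called 840, the other alternatives 0, and leaving out a Monts Koghi plant 0 to 0. Without a Riviere Blanche plant the interaction could not be estimated, and in the site fit the lone Riviere Blanche plant is assumed to vary like the others.

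Separated contigs numbered 9635, and 11936 to 26015 with 1 plant left out (14879 without P. semperflorens plant 1, the largest value without a Monts Koghi plant). At 100 CPM or more these were 412, and 451 to 843. The 23 contigs at least 10-fold apart became 38 to 364. Fewer plants leave fewer values to exceed. Agreement had an r of 0.20, and 0.06 with the November 4 plants alone (same sign in 51.6%). With 1 Monts Koghi plant left out r was 0.09 to 0.26 and the same-sign share 53.2% to 58.5%.

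The median absolute site difference of 0.412 in P. gabriellae was 0.582 with 0.1 CPM added, 0.228 with 2 CPM, 0.447 in thinned libraries and 0.425 to 0.474 with a plant left out. In P. semperflorens 0.348 became 0.493, 0.190, 0.378 and 0.371 to 0.408. The shares at least 4-fold apart became 8.45% and 1.72% with 0.1 and 2 CPM added in P. gabriellae, and 5.12% and 0.806% in P. semperflorens. With a plant left out they were 3.77% to 6.4% and 2.64% to 3.43%.

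Contigs detected at Monts Koghi only numbered 42 at 5 reads against 0, 38 at 10 against at most 2, and 9 to 251 with 1 plant left out. Those at Riviere Blanche only numbered 0 to 7. No paired analysis was possible because the plants numbered 2 are the Riviere Blanche plants, so number and site coincide. Depth limits the scarce contigs most.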
